A study of Mus musculus with 9 samples.

Results

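The genes described here are the Toll-like receptors (TLRs) and LPS co-receptors of mouse bone-marrow-derived macrophages (BMDMs). The 10 members are Tlr1, Tlr2, Tlr6, Tlr4, Ly96, Cd14, Tlr3, Tlr7, Tlr9 and Tlr13. They were found by symbol in a count table of 24061 gene symbols, where they took 16 of 32850 rows. The table covers 9 poly(A) RNA-seq libraries in 3 groups of 3. All groups were C57BL/6J wild-type BMDMs, grown from the marrow of female mice aged 8 to 10 weeks in L-cell conditioned medium and then deprived of serum. Veh cells received DMSO and no LPS. LPS cells received DMSO for 3 hr and then 10 ng/mL LPS for 2 hr. T0+LPS cells received 500 nM of the liver X receptor (LXR) agonist T0901317 (T0) for 3 hr and then the same LPS for 2 hr in the presence of the agonist. Per the study's methods, each sample was a separately differentiated culture. The age of the cultures at harvest in the Veh group relative to the LPS groups is not given in the sources used here. T0 without LPS was not analysed here, so only T0+LPS against LPS differs in T0 alone. T0+LPS against Veh differs in both treatments.

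TLRs are sensors of microbial molecules. TLR2 sits at the cell surface and pairs with TLR1 or TLR6 to bind bacterial lipopeptides. TLR4 binds LPS together with MD-2, the product of Ly96, after CD14 has handed the LPS over. TLR3, TLR7, TLR9 and the rodent receptor TLR13 work in endosomes and bind double-stranded RNA, single-stranded RNA, CpG DNA and bacterial ribosomal RNA, respectively. Most TLRs signal through the adaptor MyD88, whereas TLR3 uses TRIF, and TLR4 uses both. Macrophages carry many of these receptors, and LPS is the standard ligand used to activate them through TLR4.

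Total counts per library ranged from 13299044 to 16467983. Macrophage marker genes other than Itgam had reads in every library, at unlike levels. The 7 listed markers, with Adgre1 listed under its older symbol Emr1, summed to 25945 to 28171 CPM (counts scaled to the size of the library, after a composition factor) in Veh, 29304 to 30381 CPM in LPS and 31687 to 33244 CPM in T0+LPS, and only Itgam had 0 reads. Lyz2 made up most of these sums, with a median of 21363 CPM over the 9 libraries, whereas Fcgr1 and Mertk had medians of 81.7 and 60.7. Counts of Fcgr1 and Mertk were lower in each LPS library than in each Veh library, so the sums do not describe each marker. The 7 neutrophil markers found summed to 0.962 to 1.45 CPM in Veh, 2.16 to 3.28 in LPS and 1.88 to 2.59 in T0+LPS, with S100a9 and Retnlg at 0 in all 3 groups. The 6 dendritic cell markers summed to 0.405 to 0.529, 2.54 to 2.98 and 2.08 to 3.12 CPM, with Siglech at 0 in all 3 groups. The lymphocyte, fibroblast and mast cell lists summed to at most 2.45, 0.661 and 0.0793 CPM. The part of these small changes in the values of the members was not tested. How many exon bases could be counted for each marker was not examined, and overlapping rows can hold 0 reads, as described below. A 0 here, that of Itgam included, is therefore not read as absence of the gene or of a cell type. Genes known to respond to each treatment were read first as a check of the labels. Il1b, an inflammatory cytokine gene, went from 1.78 ± 1.20 CPM in Veh to 1143 ± 136 in LPS, and Tnf from 0.0812 ± 0.0442 to 5.84 ± 0.832 CPM. The LXR targets Abca1 and Abcg1 were 2.77-fold and 4.26-fold higher in T0+LPS than in LPS. Both also changed with LPS alone, in opposite directions, at 2.53-fold and 0.42-fold of Veh. The countable exon bases of these check genes were not examined either, so their direction is read and not their level.

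Not every member could be read from this table. Each row is one RefSeq transcript, and the 6696 rows of the whole table whose exon bases all lie in other rows too held 0 reads. A gene with several overlapping transcripts was therefore counted only through bases that belong to 1 of its rows. Ly96 had 2 rows with 54 unshared bases of 603 exon bases, at chr1:16700795-16700848 on the plus strand of mm10, and drew 8 reads over the 9 libraries. Tlr7 had 5 rows with 36 unshared bases of 3979, at chrX:167330401-167330436 on the minus strand, and drew 0 reads in every library, where a count of 0 allows up to 3 reads per library. These limits cover counting error only. The values of Ly96 and Tlr7 describe 54 and 36 bases and not the genes, and neither gene was tested. Tlr1 had 366 unshared bases of 3054. They lie in the noncoding 5′ exons of its 2 annotated starts, at chr5:64932667-64932699, chr5:64932801-64933100 and chr5:64933526-64933558 on the minus strand. Its 2717 reads over the 9 libraries came from there. The other 7 members had 1 row each and no shared bases, which leaves 8 measured members.

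**Figure D1:**
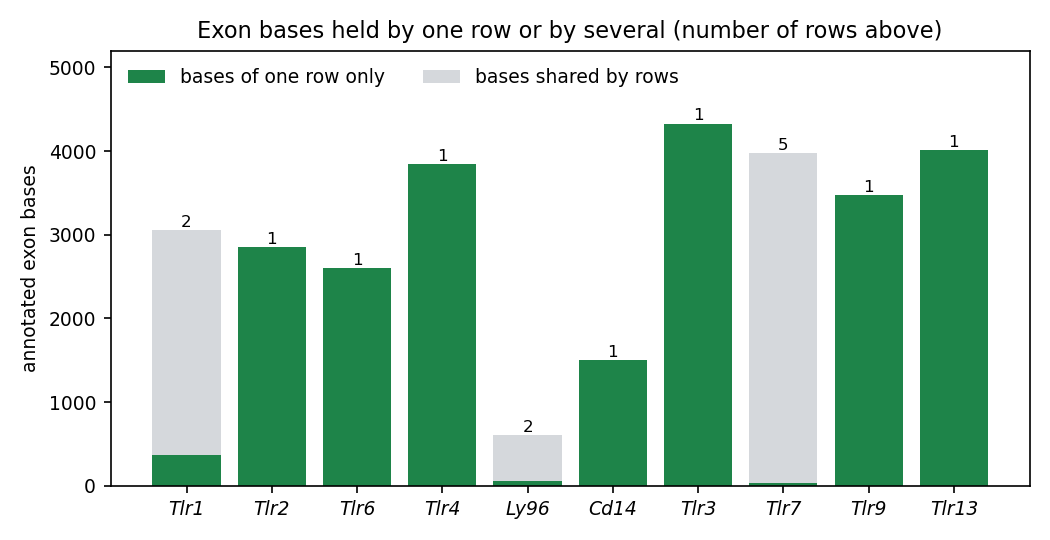
Exon bases of each member (vertical axis, bases) that lie in 1 row of the count table (green) or in several (grey), with the number of rows above each bar. Tlr1, Ly96 and Tlr7 keep 366 of 3054, 54 of 603 and 36 of 3979 bases, and the other 7 members keep all of theirs.

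The 5′ sequences of the lipopeptide receptor genes and of Tlr9 are shown as examples. LPS changed each of these genes, and Tlr9 was also called with T0. Cd14 and Tlr13 changed with LPS too, but their sequences are not shown, nor is that of a further Tlr6 window. They come from RefSeq windows of 250 bases before an annotated start on GRCm38.p6, which has the coordinates of mm10. Windows of 6 members, 8 in all, were used, and none is shown for Tlr4, Tlr7, Ly96 and Cd14. Each run ends where an annotated exon of the gene begins or at the start site. Capitals mark matches, on either strand, to the letters searched: TGANTCA for AP-1, GAGGAAG for PU.1, AGGTCA for nuclear receptors, GGG and TTCC with any 3 bases between them (looser) or GGG and TTTCC with any 2 bases between them (stricter) for NF-kB, and a pair of GAAA with any 2 bases between them for the core of the interferon-stimulated response element (ISRE).
Tlr2, chr3:83841768-83841858, minus strand: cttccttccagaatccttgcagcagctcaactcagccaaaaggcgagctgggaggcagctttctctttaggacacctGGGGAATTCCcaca
Tlr1, chr5:64933564-64933808, minus strand: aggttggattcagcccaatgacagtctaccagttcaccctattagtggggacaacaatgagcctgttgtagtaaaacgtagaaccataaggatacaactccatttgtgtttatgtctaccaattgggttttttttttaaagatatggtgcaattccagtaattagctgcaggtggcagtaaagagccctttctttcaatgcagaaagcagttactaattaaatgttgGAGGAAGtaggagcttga
Tlr6, chr5:64960098-64960298, minus strand: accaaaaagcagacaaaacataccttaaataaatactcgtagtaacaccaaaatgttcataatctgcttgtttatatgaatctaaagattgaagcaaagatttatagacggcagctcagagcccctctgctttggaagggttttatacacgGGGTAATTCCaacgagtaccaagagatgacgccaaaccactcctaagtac
Tlr9, chr9:106222348-106222597, plus strand: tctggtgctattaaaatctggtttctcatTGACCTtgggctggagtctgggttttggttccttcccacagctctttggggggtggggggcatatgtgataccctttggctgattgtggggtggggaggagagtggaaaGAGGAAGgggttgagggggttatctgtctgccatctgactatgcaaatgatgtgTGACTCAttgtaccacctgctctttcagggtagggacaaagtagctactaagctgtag

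The Tlr2 window held a match to the looser NF-kB form at -173 to -164 from its start site, and the Tlr6 window shown held one at -99 to -90. Of the 32851 RefSeq windows of this length, 4.65% held that form and 1.41% held the stricter form, whose matches are all matches to the looser form too. The stricter form was also found at -211 to -202 of Tlr3. Another window of Tlr6, at an annotated start nearer to the coding exon, held 2 overlapping matches to the ISRE core, which 2.98% of windows held. The Tlr9 window held the AP-1 letters at -58 to -52, the PU.1 letters at -112 to -106 and the nuclear receptor letters at -221 to -216. The shares of all windows with these letters were 6.75%, 10.6% and 14%. The PU.1 letters were also present at -23 to -17 of Tlr1 and at -83 to -77 of Tlr13, and the nuclear receptor letters at -15 to -10 of Tlr2. A match describes letters only.

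With LPS, 4 of the 8 measured members rose, 2 fell and 2 did not pass the test. The members that rose were the 3 lipopeptide receptor genes Tlr1, Tlr2 and Tlr6 and the LPS co-receptor gene Cd14. The members that fell were the endosomal receptor genes Tlr9 and Tlr13. Of the 9559 genes tested in LPS against Veh, 32.9% were called higher and 31.2% lower at an adjusted p under 0.05, so a call in either direction was common in this comparison. The median log2 fold change of the 8 members was 0.80, against -0.00 over all genes tested. That median falls in a gap, between Tlr6 at 1.67 and Tlr3 at -0.07, and describes no single member. These are bulk samples, in which fewer cells expressing a gene and less RNA per cell cannot be told apart. The normalization factors for library composition (TMM) were 1.14 in the 3 Veh libraries and 0.931 to 0.948 in the 6 others. With library totals in place of TMM factors, 1696 genes were called higher and 5408 lower, in place of 3148 and 2982, and the median log2 fold change of all genes was -0.28. The members are given relative to that shift where it changed a call.

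**Figure D2:**
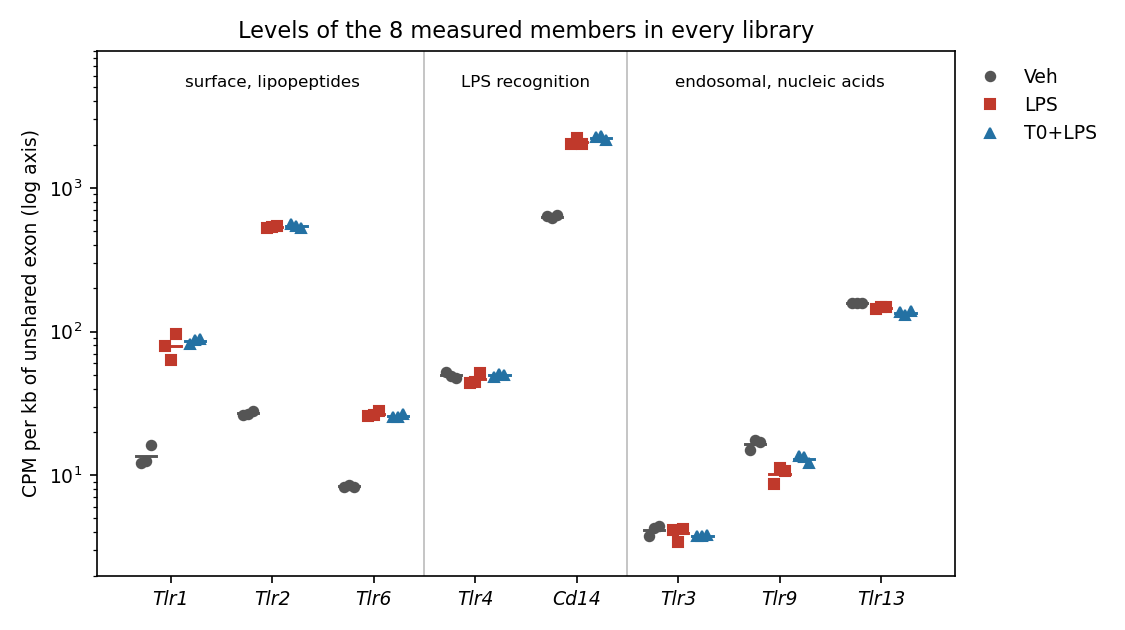
TMM-scaled CPM per kb of unshared exon (vertical log axis) for the 8 measured members in every library, with Veh as circles, LPS as squares, T0+LPS as triangles and group means as short lines. Tlr2 moved from a mean of 26.9 in Veh to 532 in LPS, and Tlr4, Tlr3 and Tlr13 stayed close to their Veh levels.

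Tlr2, the partner shared by both lipopeptide receptor pairs, lies at chr3:83836272-83841608 on the minus strand of mm10 and showed the largest change of the members. Its level was 75.2, 75.9 and 79.3 CPM in the 3 Veh libraries and 1493, 1523 and 1543 CPM in the 3 LPS libraries. The groups were far apart, and the spread among replicates was small in both. The fold change was 19.8, a log2 change of 4.31 ± 0.05 (SE, adjusted p = 1e-19). With T0 before LPS, the level was 1588, 1540 and 1507 CPM, which overlapped the range of LPS alone. The log2 difference between T0+LPS and LPS was 0.02, with a 95% interval of -0.07 to 0.11 and an adjusted p of 0.87.

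Tlr6, which encodes a partner of TLR2 for diacylated lipopeptides, lies next to Tlr1 at chr5:64953095-64960034 on the minus strand. Its level was 21.5, 22.3 and 21.7 CPM in Veh and 66.9, 68.3 and 73.3 CPM in LPS. Every LPS library was above every Veh library, by 3.19-fold on average and by 1.67 ± 0.06 on the log2 scale (adjusted p = 3.5e-13). In T0+LPS, the values were 66.2, 66.3 and 69.7 CPM and overlapped those of LPS. The log2 difference from LPS was -0.04 (95% interval -0.16 to 0.08, adjusted p = 0.82).

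Tlr1, which encodes the partner for triacylated lipopeptides, lies at chr5:64924680-64933558 on the minus strand. Its counts come from its 5′ exons alone, so they describe transcripts from those starts. The level was 4.44, 4.63 and 5.91 CPM in Veh and 29.1, 23.1 and 35.1 CPM in LPS. The groups did not overlap, and the fold change was 5.82, a log2 change of 2.54 ± 0.15 (adjusted p = 3.1e-10). Both transcript rows were called when tested as separate features, the first with a log2 change of 2.19 ± 0.24 (adjusted p = 8.4e-07) and the second with 2.61 ± 0.16 (adjusted p = 4.5e-10). The first row held 18.5% ± 3.61 of the reads of Tlr1 in Veh, 14.9% ± 1.53 in LPS and 16.4% ± 1.80 in T0+LPS (SD, n = 3), and the groups overlapped. The first row was counted on 33 unshared bases and the second on 333. These shares of reads are therefore not shares of transcripts, and only their change between groups can be read. In T0+LPS, the level was 30.2, 31.8 and 32.6 CPM, inside the range of the LPS libraries. The log2 difference from LPS was 0.12 (95% interval -0.12 to 0.36, adjusted p = 0.72), and it was -0.03 without LPS replicate 2.

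The genes for LPS recognition did not change together. Cd14, a surface protein that passes LPS to TLR4 and MD-2, lies at chr18:36725067-36726654 on the minus strand and was the most abundant measured member per kb in every group. Its level was 952, 917 and 963 CPM in Veh and 3029, 3339 and 3016 CPM in LPS. All LPS libraries were above all Veh libraries, with a fold change of 3.32 and a log2 change of 1.73 ± 0.05 (adjusted p = 7.2e-15). In T0+LPS, Cd14 was at 3363, 3449 and 3244 CPM, and 1 LPS library reached into that range. The log2 difference from LPS was 0.10 (95% interval -0.00 to 0.20), which did not pass the test (adjusted p = 0.37).

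Tlr4, the signaling receptor for LPS, lies at chr4:66827811-66842796 on the plus strand. Its level was 200, 189 and 182 CPM in Veh and 169, 170 and 197 CPM in LPS, and the groups overlapped. The log2 difference was -0.09 (95% interval -0.21 to 0.04, adjusted p = 0.20). It became -0.17 (adjusted p = 0.0026) without LPS replicate 3, and -0.37 (adjusted p = 6.3e-05) with library totals, where it was -0.09 relative to the median of all genes. In T0+LPS, Tlr4 was at 185, 195 and 191 CPM, with a log2 difference from LPS of 0.09 (95% interval -0.04 to 0.22, adjusted p = 0.57).

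Ratios within a library do not depend on how libraries were scaled to each other. The Cd14 to Tlr4 ratio of counts per kb was 12.8 ± 0.721 in Veh, 45.2 ± 5.62 in LPS and 45.3 ± 1.61 in T0+LPS (SD, n = 3). The Tlr2 to Tlr4 ratio was 0.545 ± 0.0404 in Veh, 11.5 ± 0.836 in LPS and 11.0 ± 0.554 in T0+LPS, so Tlr2 went from below Tlr4 to above it in all LPS-treated libraries. The Tlr1 to Tlr6 ratio was 0.195 ± 0.0325, 0.355 ± 0.0616 and 0.398 ± 0.00965. Only the change in this last ratio can be read, since Tlr1 was counted over a part of its exons. For each ratio, no LPS library overlapped the Veh libraries, and the two-sided exact permutation p was 0.1, the smallest that 3 against 3 samples allow (0.15 after Benjamini-Hochberg adjustment over 9 tests). Between T0+LPS and LPS, the exact permutation p was 0.9 for Cd14 to Tlr4 (adjusted 0.9) and 0.4 for both other ratios (adjusted 0.45), and the groups overlapped.

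**Figure D3:**
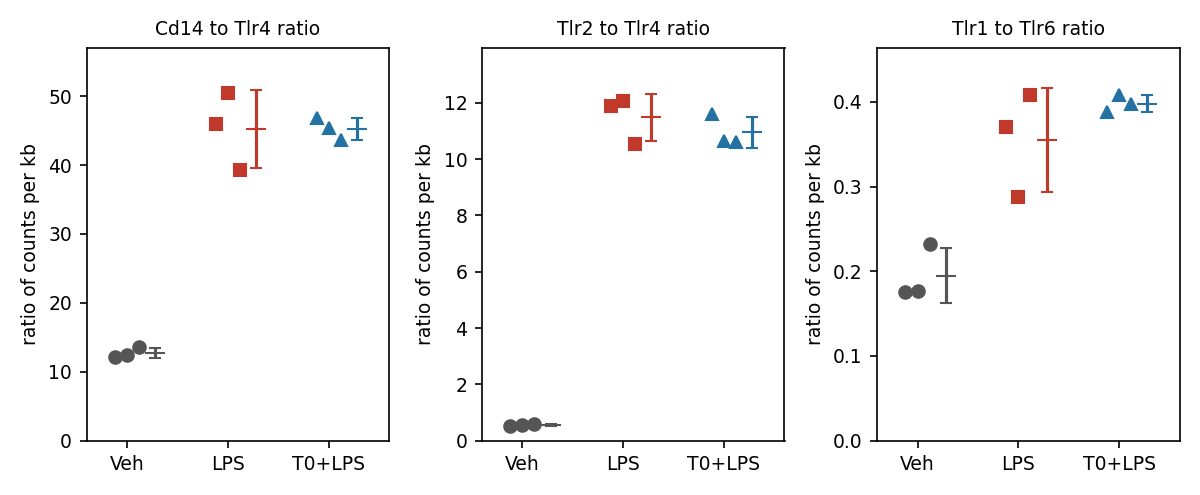
Ratio of counts per kb of annotated exon between pairs of members (vertical axes) in each library, with the mean ± SD of 3 libraries beside each group. The Cd14 to Tlr4 ratio was 12.2 to 13.6 in Veh and 39.3 to 50.5 in LPS, and the T0+LPS values lay among those of LPS in the first panel.

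The endosomal receptor genes gave the 2 decreases. Tlr9, which encodes the receptor for CpG DNA, lies at chr9:106222598-106226876 on the plus strand. Its level was 51.9, 61.4 and 59.2 CPM in Veh and 30.3, 39.2 and 37.3 CPM in LPS. Every LPS library was below every Veh library, and the ratio of LPS to Veh was 0.623, a log2 change of -0.68 ± 0.08 (adjusted p = 2.8e-06).

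Tlr13, which encodes a receptor for bacterial ribosomal RNA, lies at chrX:106143275-106160493 on the plus strand and was the most abundant measured TLR gene per kb in Veh. Its level was 633, 634 and 632 CPM in Veh and 576, 593 and 595 CPM in LPS. The groups did not overlap, but the change was small, at -0.10 ± 0.04 on the log2 scale (adjusted p = 0.025). The call was lost without any 1 of the Veh replicates (adjusted p from 0.061 to 0.075), without LPS replicate 1 (0.089) and with the replicate numbers as a block (0.059). The range of the adjusted p over all alternatives was 2.2e-07 to 0.089.

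Tlr3, the receptor gene for double-stranded RNA, lies at chr8:45395665-45410539 on the minus strand. It was the least abundant measured member per kb of unshared exon in every group. Per kb of annotated exon, Tlr1 had a lower mean in Veh (1.63 against 4.16 CPM). The level of Tlr3 was 16.3, 18.6 and 19.1 CPM in Veh and 18.1, 14.9 and 18.3 CPM in LPS. The groups overlapped, and the log2 difference was -0.07 (95% interval -0.28 to 0.14, adjusted p = 0.55). With library totals it was -0.35 (adjusted p = 0.0049), which is -0.07 relative to the median of all genes.

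With T0 before LPS, 1 of the 8 measured members passed the test against LPS alone. Of the 9348 genes tested in this comparison, 1.35% were called higher and 1.83% lower. The member called was Tlr9, and it was higher in T0+LPS. The median log2 fold change of the 8 members was 0.06, against 0.00 over all genes tested. The 4 members that LPS raised had log2 differences between -0.04 and 0.12, and none of the 4 was called by edgeR, none had an unadjusted p under 0.05 and none was called by DESeq2.

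Tlr9 was at 47.0, 46.4 and 42.1 CPM in T0+LPS, between the 2 other groups. All 3 values were above the highest LPS value of 39.2 CPM and below the lowest Veh value of 51.9 CPM. The difference between T0+LPS and LPS was 1.27-fold, or 0.34 ± 0.09 on the log2 scale, with a 95% interval of 0.16 to 0.53 and an adjusted p of 0.045. The size held in sign under every alternative tried, but the call did not. LPS replicate 1 was the lowest of the LPS libraries, and without it the log2 difference was 0.24 (adjusted p = 0.25). Without T0+LPS replicate 1 it was 0.31 (adjusted p = 0.13), without T0+LPS replicate 2 it was 0.32 (0.16), and with library totals it was 0.34 (0.052). The adjusted p ranged from 0.00029 to 0.25 over the alternatives. Against Veh, Tlr9 stayed lower in T0+LPS, with a log2 difference of -0.37 ± 0.07 (adjusted p = 0.00015).

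Tlr13 moved the other way. It was at 553, 523 and 555 CPM in T0+LPS, and all 3 values were below the lowest LPS value of 576 CPM. The log2 difference of -0.11 (95% interval -0.21 to -0.02) did not pass the test across all genes, with an unadjusted p of 0.02 and an adjusted p of 0.23. Against Veh, the difference was -0.24 ± 0.03 (adjusted p = 1.3e-05). Tlr3 was at 16.2, 16.4 and 16.6 CPM in T0+LPS, within the range of LPS, with a log2 difference of -0.05 (95% interval -0.26 to 0.15, adjusted p = 0.87).

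**Figure D4:**
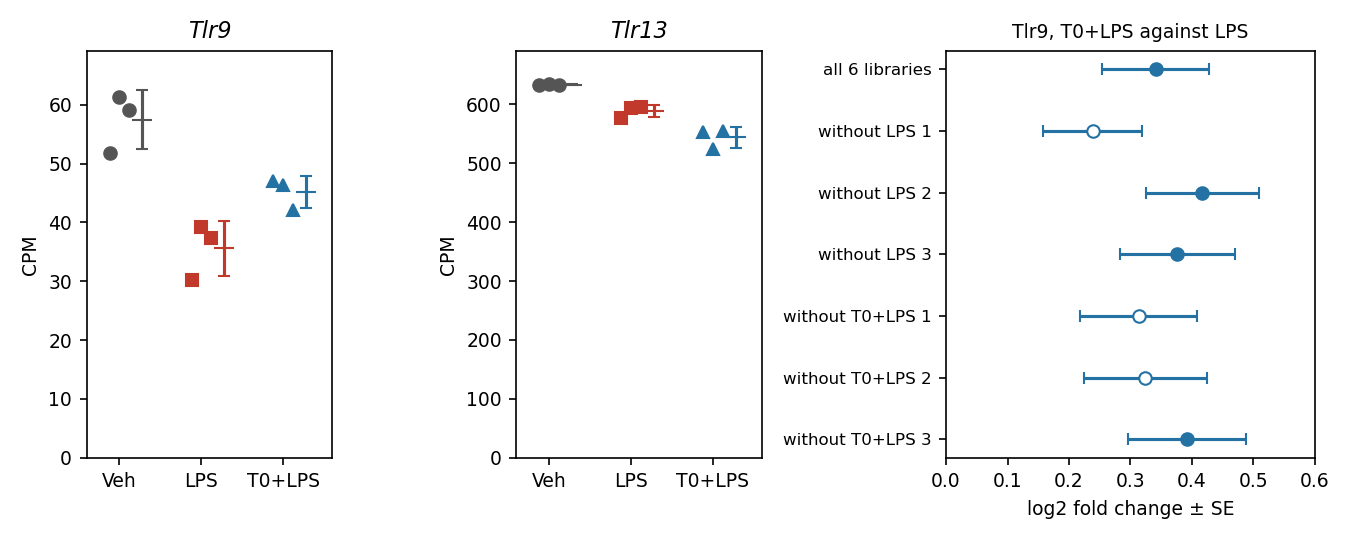
Left and middle panels, CPM of Tlr9 and Tlr13 in each library from 0, with the mean ± SD of 3 libraries beside each group. Right panel, log2 fold change ± SE of Tlr9 in T0+LPS against LPS with all 6 libraries and without each in turn, filled where the adjusted p was under 0.05. Tlr9 was lowest in LPS, and its difference ran from 0.24 to 0.42.

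T0+LPS against Veh gave the same directions as LPS against Veh for the 6 members called, but it shares the Veh libraries with that comparison. In it, 4 members were called higher and 2 lower, where 32.4% and 32.9% of 9636 genes tested were called higher and lower. The log2 changes were 4.31 for Tlr2, 2.64 for Tlr1, 1.81 for Cd14, 1.60 for Tlr6, -0.37 for Tlr9 and -0.24 for Tlr13. Tlr4 (-0.02, adjusted p = 0.66) and Tlr3 (-0.15, adjusted p = 0.14) were not called. Without Veh replicate 1, Tlr3 was at -0.22 and passed the test (adjusted p = 0.049), which made 3 members lower.

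**Figure D5:**
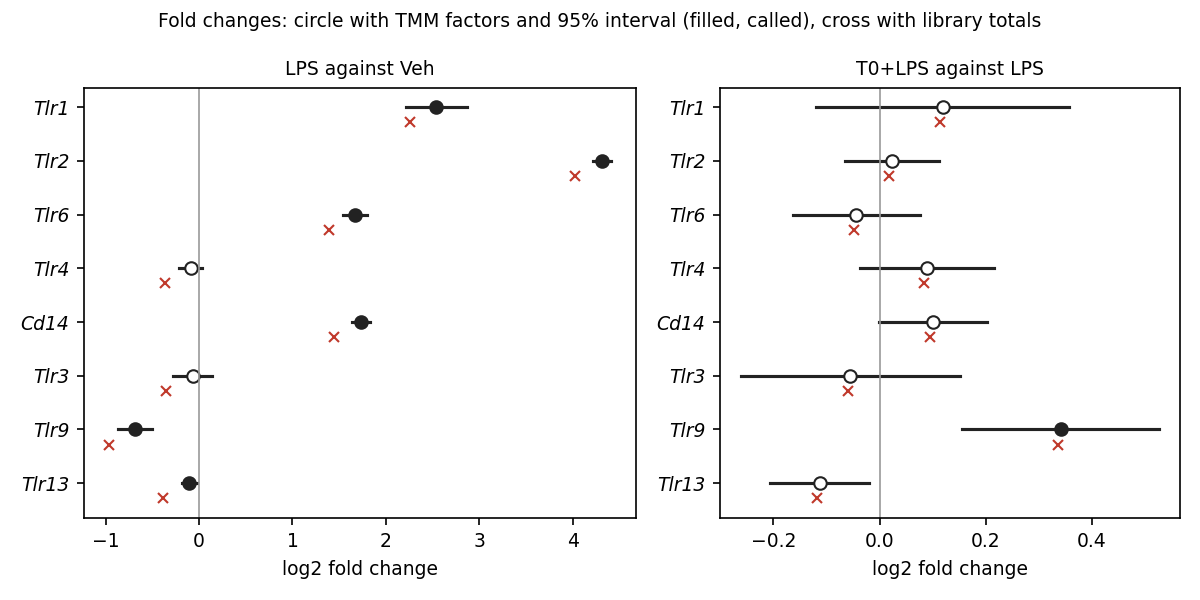
Log2 fold change of the 8 measured members (horizontal axes) in LPS against Veh and T0+LPS against LPS. Circles with 95% intervals use TMM factors and are filled where called, and crosses use library totals, which lie further down for every member in the left panel and slightly down in the right. Tlr9 is the only filled circle in the right panel, at 0.34.

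The order of the levels per kb of unshared exon changed with LPS. In Veh, the order was Cd14 (631 CPM per kb), Tlr13 (158), Tlr4 (49.5), Tlr2 (26.9), Tlr9 (16.6), Tlr1 (13.6), Tlr6 (8.40) and Tlr3 (4.16). Tlr9 and Tlr1 overlapped, and the other neighbours did not. In LPS, Tlr2 (532) stood behind Cd14 (2089) and ahead of Tlr13 (146), followed by Tlr1 (79.5), Tlr4 (46.5), Tlr6 (26.7), Tlr9 (10.3) and Tlr3 (3.95). The same order was found in T0+LPS, with no overlap between neighbours among the members in either LPS-treated group. The place of Tlr1 rests on 366 bases of 5′ exons. Per kb of all annotated exons, Tlr1 had a mean of 1.63 CPM in Veh, below that of Tlr3. On that measure it was at 9.53 in LPS and 10.3 in T0+LPS, below the means of Tlr9. The place of Tlr1 among the members is therefore not read.

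Of the other 4 mouse TLR genes, 1 had enough reads to be tested. Tlr8, an endosomal receptor gene related to Tlr7, was at 346 ± 15.9 CPM in Veh, 298 ± 23.2 in LPS and 276 ± 10.5 in T0+LPS. It fell with LPS by 0.21 on the log2 scale (adjusted p = 0.0025), and its difference between T0+LPS and LPS of -0.11 was not called (adjusted p = 0.41). Tlr5, Tlr11 and Tlr12 had 14, 16 and 2 reads over all 9 libraries, on exons with no shared bases.

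The genes that act with the receptors are given by role. Among 11 genes for accessory and trafficking proteins, 9 could be tested, and LPS raised 2 and lowered 3, which is close to the shares over all genes of 32.9% and 31.2%. Slc15a4, an endosomal transporter gene, and Hsp90b1, which encodes the TLR chaperone gp96, rose by 0.16 and 0.14 on the log2 scale (adjusted p = 0.0041 and 0.0031). Nrros, which encodes a negative regulator of TLRs, and Cnpy3, which encodes a cochaperone of gp96, changed by -0.31 and -0.27 (adjusted p = 7.2e-06 and 0.00012). The third to fall was Lgmn, for an endosomal protease, at -0.10 (adjusted p = 0.043). Unc93b1, which carries nucleic acid receptors to endosomes, had a log2 difference of 0.00 (95% interval -0.09 to 0.10), counted on 274 of 2266 bases. The median over the 9 genes was -0.10. With library totals, all 9 were called lower, Slc15a4 at -0.12 and Hsp90b1 at -0.14 included, so these 2 rose only relative to the median of all genes, by 0.16 and 0.15.

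Of 11 genes for adaptors and proximal kinases, 8 could be tested, and LPS raised 7 and lowered 1, where 32.9% and 31.2% of all genes were called. Their median log2 change was 1.34. Irak2 rose by 2.53 and Traf3 by 2.07, though these rest on 144 of 3197 and 186 of 7160 exon bases. Among the genes with no shared bases, Myd88 went from 106 ± 0.253 to 261 ± 14.8 CPM and Ticam2, which encodes the bridging adaptor TRAM, from 77.5 ± 4.21 to 199 ± 5.23 CPM. Irak4, for the kinase recruited first to MyD88, was lower, at -0.24 (adjusted p = 0.0016). Tirap, Sarm1 and Irak1 could not be tested, with 0, 1 and 65 reads on their few unshared bases. With library totals, 6 genes were called higher, since Ticam1, which encodes TRIF, went from a called 0.28 to -0.00.

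Of 5 genes for decoys and inhibitors, 3 could be tested and 2 rose with LPS, where 32.9% of all genes were called higher. Tnfaip3, which encodes the ubiquitin-editing enzyme A20, rose by 5.79 on the log2 scale, counted on 431 of 4595 bases, and Tollip rose by 0.37. With library totals Tollip was at 0.09 and was not called (adjusted p = 0.05). Between T0+LPS and LPS, none of the 20 testable genes of these 3 lists was called by edgeR, 4 had an unadjusted p under 0.05, and DESeq2 called 1, Lgmn. Over all 9348 genes tested, 1299 had an unadjusted p under 0.05, and edgeR called 1.35% higher and 1.83% lower. The lowest adjusted p values in edgeR were those of Tnfaip3 at -0.34 (adjusted p = 0.07) and Lgmn at 0.17 (adjusted p = 0.076), both chosen for mention after their values were seen.

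The genes whose pattern was most like each member were found by Pearson r of log2(CPM + 1) over the 9 libraries, among 7299 genes with a mean of at least 5 CPM. The 3 groups set most of each r, so it is a description. For Tlr2 the leading gene was Rnf19b (r = 0.9999), for Tlr6 Hivep2 (0.9995), for Cd14 Rab20 (0.9994) and for Tlr1 4930487H11Rik (0.995). For Tlr9, the 3 leading genes were Cd5l (0.974), Pqlc2 (0.969) and Maf (0.968). Cd5l went from 173 CPM in Veh to 113 in LPS and 149 in T0+LPS on average. This order of the groups is that of Tlr9 and follows from choosing the gene by r, so it is not separate evidence. For Tlr13 the leading gene was Galnt10 (0.978), for Tlr4 Zfp664 (0.9499) and for Tlr3 Prkdc (0.874).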

How the data were processed

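Per the study's methods and the submitters' processing notes, the authors used cutadapt for adaptors, HISAT2 for alignment (mm10 transcriptome) and featureCounts to assign reads to RefSeq genes. The deposited values are whole read counts per transcript row and were not normalized. The authors' own comparison tables hold means, p-values and ratios for T0+LPS against LPS and gene names for LPS against Veh, and were not used. Samples were grouped by their labels.

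Here, counts were summed per gene symbol. Pairwise fits used the quasi-likelihood test of edgeR 4.0.16 (R 4.3.3), TMM factors, the filterByExpr filter applied to the 6 libraries compared and Benjamini-Hochberg adjustment over all genes tested, called under 0.05. Levels are CPM with TMM factors over all 9 libraries, as mean ± SD of 3. Ratios were compared by a two-sided exact permutation test in scipy 1.17.1. Alternatives were the size factors of DESeq2 1.42.0, library totals, no filter, the DESeq2 test, all 9 libraries in 1 fit, a replicate block, single transcript rows and each library left out. The fitting code was tested on simulated data. Total counts of 13299044 to 16467983 per library set the counting precision.

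The 8 measured members are given in each comparison, described by role, and Ly96 and Tlr7 are named as not measured. From the other lists, up to 2 called genes in each direction are named by size, and the exceptions are said where they occur or serve as values of the pathway. The members and lists were chosen with earlier results of these data known.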

Additional observations from a re-analysis of the deposited data

How the results depend on the processing

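The 4 increases with LPS (Tlr1, Tlr2, Tlr6 and Cd14) and the decrease of Tlr9 kept their direction and call under the 7 other settings and the 6 libraries left out in turn. Library totals in place of TMM factors moved the counts of calls to 1696 higher and 5408 lower in LPS against Veh and to 1661 and 5520 in T0+LPS against Veh. With them, 4 members were called lower in each of these comparisons, since Tlr4 (-0.29 in T0+LPS against Veh) and Tlr3 (-0.41) were added, and 0 members were called higher in T0+LPS against LPS. Relative to the median of all genes, Tlr4 was at 0.0034 and Tlr3 at -0.12 in T0+LPS against Veh. In T0+LPS against LPS, that median was -0.0022 with library totals, and Tlr9 was at 0.34 (adjusted p = 0.052). Without the filter on low counts, 225 genes were called higher and 285 lower in T0+LPS against LPS, in place of 126 and 171, and the cause was not tested.

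Leaving out a library gave 59 to 167 genes called higher and 82 to 191 called lower in T0+LPS against LPS, with the lowest counts without LPS replicate 1. Without T0+LPS replicate 2 they were 78 and 94, and without T0+LPS replicate 1 there were 103 called lower. In LPS against Veh, 1 to 3 members were called lower, in T0+LPS against LPS, 0 to 1 called higher, and in T0+LPS against Veh, 2 to 3 called lower. Among fold changes of members, the signs that turned were of differences that were not called: Tlr3 in LPS against Veh (-0.14 to 0.01, the latter without LPS replicate 2) and in T0+LPS against LPS (-0.15 to 1.36e-05), Tlr1 in T0+LPS against LPS (-0.0278 without LPS replicate 2 to 0.28), and Tlr4 in T0+LPS against Veh (-0.052 to 0.018 over the libraries left out, and 0.0046 with all 9 libraries in 1 fit). The log2 difference of the Cd14 to Tlr4 ratio between T0+LPS and LPS, 0.0087 with all libraries, ran from -0.089 to 0.091.

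No pairing of the samples by replicate number was seen, though 3 libraries per group cannot exclude it. Same-numbered samples had correlations of their deviations from the group means of 0.04, 0.02 and -0.05 between LPS and Veh and of 0.05, -0.05 and -0.00 between T0+LPS and LPS. For samples of different numbers they ran from -0.10 to 0.07 and from -0.13 to 0.14. With the replicate number as a block, 3053 genes were called higher and 2927 lower in LPS against Veh and 155 and 230 in T0+LPS against LPS, 1 member was called lower with LPS because Tlr13 lost its call, and Tlr9 kept its call with T0 (adjusted p = 0.012). Counting left Ly96 and Tlr7 unmeasured under every setting.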
